A study of Caenorhabditis elegans with 2 samples.

Results

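The genes of the proteasome, the protease that degrades ubiquitin-tagged proteins, were examined for binding of the forkhead transcription factor FKH-4 in first-stage (L1) larvae of the nematode Caenorhabditis elegans. The members are the 33 protein-coding genes, of 19973 on the 6 nuclear chromosomes, whose names begin with pas-, pbs-, rpn- or rpt- in the Ensembl annotation of WBcel235. Of these, 14 encode the core particle and 19 the regulatory particle. Binding was measured by chromatin immunoprecipitation and sequencing (ChIP-seq) with an antibody against GFP in 2 biological replicates of strain OP100, genotype unc-119(tm4063) III; wgIs100. The strain is a transgenic line that stably expresses FKH-4 with a GFP-FLAG tag at its C terminus. Both samples were hermaphrodite larvae collected 6 h after synchronisation by bleaching and starvation. They form 1 group, so no group of another genotype, stage or feeding state is compared, and whole larvae give the sum over all tissues.

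The proteasome consists of a barrel-shaped core particle and a regulatory particle that caps it. In the core, outer rings of alpha subunits (pas genes) gate the entry and inner rings of beta subunits (pbs genes) hold the proteolytic sites. The regulatory particle has a base, with a ring of ATPases (rpt genes) that unfold substrates, and a lid. Among the rpn genes, RPN-10 and RPN-13 are known as ubiquitin receptors and RPN-11 as the enzyme that removes ubiquitin chains. Every cell needs the complex, and subunit genes are known to be induced together by the transcription factor SKN-1 when the proteasome is impaired.

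The authors deposited a reproducible peak set (IDR, irreproducible discovery rate) of 1189 peaks and longer relaxed lists, which hold many weak peaks by design. Pooling the reads gave a relaxed list of 30000 peaks, replicate 1 another 30000 and replicate 2 a list of 22442. Each peak carries the authors' signal value, a height measure of unstated scale, so signals and ranks are read within a list only. Signal ran from 51.7 to 645 in the reproducible set (median 80.4), and read depth is unknown. A gene was counted where its promoter window held a peak summit, the window reaching 1000 bp upstream and 200 bp downstream from the transcription start site (TSS) of any coding transcript. Whether a peak regulates the gene counted was not measured.

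Reproducible FKH-4 summits lay in the promoter windows of 5 of the 33 proteasome genes: the core genes pas-4 and pas-5 and the regulatory particle genes rpn-2, rpn-3 and rpn-11. That is 15.2% of the members (95% exact Clopper-Pearson interval 5.11 to 31.9, which covers counting error only), beside 4.77% of all coding genes. The core particle had 2 of 14 genes (14.3%, 1.78 to 42.8) and the regulatory particle 3 of 19 (15.8%, 3.38 to 39.6). The intervals of the core and the regulatory particle overlap over most of their length. Within the particles the peaks fell to 2 of 7 alpha ring genes, 0 of 7 beta ring genes (0 to 41.0), 0 of 6 ATPases (0 to 45.9), 1 of 4 other base genes and 2 of 9 lid genes. Signals of these 5 peaks ran from 62.4 to 98.8, at ranks 421 to 893 of 1189. The rpn-3 and rpn-11 peaks were above the median of the reproducible set and those of pas-4, pas-5 and rpn-2 below it. No test was made of the member count, because the genes were chosen with results of these data known. With the 594 strongest reproducible peaks alone, 2 of 33 members were counted, rpn-3 and rpn-11, beside 2.72% of coding genes.

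**Figure D1:**
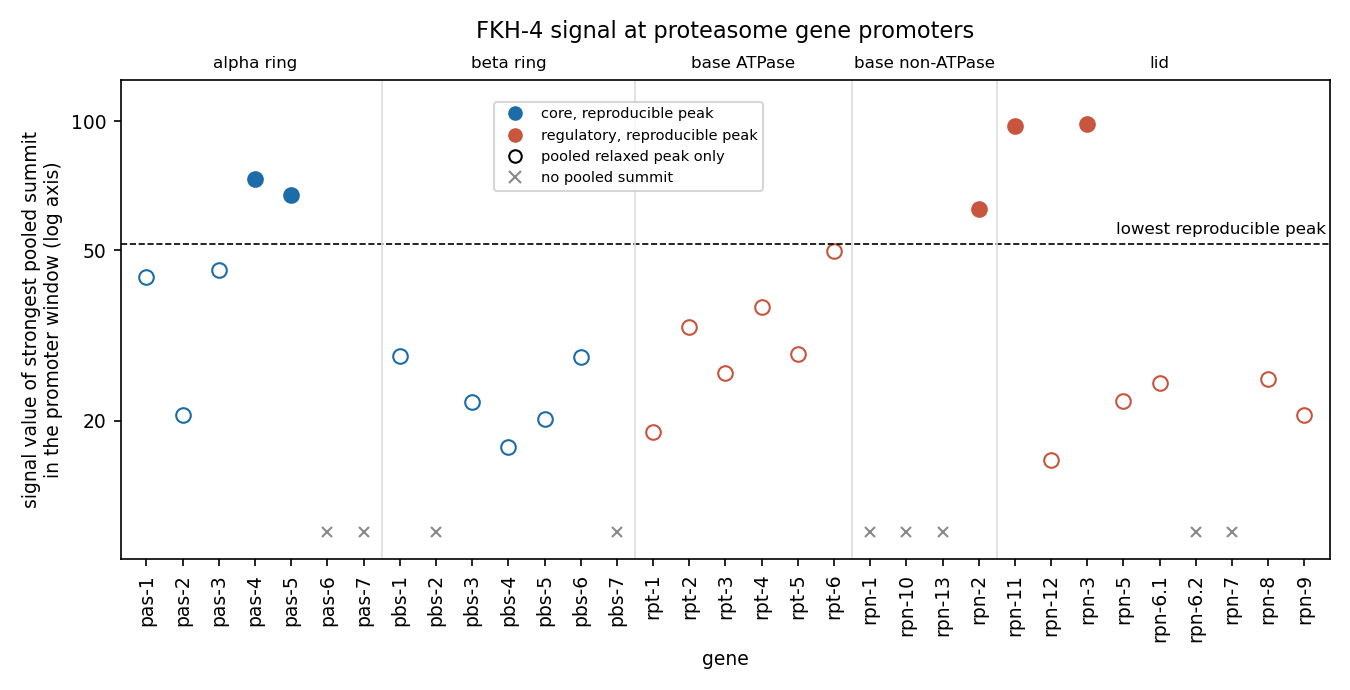
The vertical log axis gives the authors' signal value of the strongest pooled summit in each gene's promoter window, with genes grouped by subcomplex, filled points for genes in the reproducible set and crosses at the bottom for genes without a pooled summit. The 5 filled points lie between 62.4 and 98.8, and rpt-6 at 49.8 is the highest open point. The dashed line at 51.7 is the lowest signal of the reproducible set, so filled points lie above it by construction.

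The lid gene rpn-3, which encodes a structural subunit, had the strongest of these peaks, with a signal of 98.8. Its summit on chromosome III, at 8447141, lay 212 bp upstream of the rpn-3 TSS and 232 bp upstream of the TSS of hsp-110, a chaperone gene of the HSP70 family on the other strand. A noncoding RNA gene, C30C11.14, lay 46 bp from the summit. The replicates ranked this peak differently. It had a signal of 20.9 and rank 2105 of 30000 in replicate 1, and a signal of 74.3 and rank 268 of 22442 in replicate 2. The authors' −log10 q value was 0.511 in replicate 1, a weak peak by that measure, and 3.35 in replicate 2. Without replicate 2, the 1189 strongest peaks of replicate 1 no longer included it.

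The lid gene rpn-11, for the deubiquitinase, carried a peak with a signal of 97.7 (chromosome II, summit 4044568). It was the member summit closest to a start site, 22 bp upstream of the distal of 2 annotated coding TSSs, and it lay in no other coding gene's window. Both replicates placed it high, with a signal of 40.4 and rank 419 in replicate 1 and 53.0 and rank 518 in replicate 2. The replicate summits lay 5 and 3 bp from the pooled one.

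The base gene rpn-2, which encodes a large scaffold subunit, had the weakest of the peaks, with a signal of 62.4 (chromosome III, summit 6198838). The summit was 346 bp upstream of rpn-2 and 424 bp upstream of C23G10.7, the divergent neighbour. Its nearest summits were 97 bp away in replicate 1, with a signal of 29.5, and 19 bp away in replicate 2, with a signal of 37.7. Their ranks were 747 and 911.

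The stretches under these regulatory particle summits, and under the strongest pooled summit of rpt-6, the ATPase gene just below the reproducible set, are shown to let the letters be compared. Each is the plus strand of WBcel235, 5′ to 3′, within 75 bp of the summit and cut where an annotated gene other than a piRNA gene begins. Capitals mark the forkhead core TAAACA (here read as TGTTTA) in rpn-3 and the SKN-1 core GTCAT (here read as ATGAC) in rpn-11 and rpn-2. The stretches are chrIII:8447096-8447216 for rpn-3, chrII:4044547-4044643 for rpn-11, chrIII:6198763-6198913 for rpn-2 and chrIII:12369731-12369881 for rpt-6. The summit is base 46 in rpn-3, base 22 in rpn-11 and base 76 in the others.
rpn-3: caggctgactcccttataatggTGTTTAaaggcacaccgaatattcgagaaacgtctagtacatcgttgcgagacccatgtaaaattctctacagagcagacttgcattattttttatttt
rpn-11: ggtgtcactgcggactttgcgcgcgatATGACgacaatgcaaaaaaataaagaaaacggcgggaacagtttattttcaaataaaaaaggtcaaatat
rpn-2: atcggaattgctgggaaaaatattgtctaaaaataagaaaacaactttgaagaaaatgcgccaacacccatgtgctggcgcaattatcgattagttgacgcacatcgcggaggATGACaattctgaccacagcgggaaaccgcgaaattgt
rpt-6: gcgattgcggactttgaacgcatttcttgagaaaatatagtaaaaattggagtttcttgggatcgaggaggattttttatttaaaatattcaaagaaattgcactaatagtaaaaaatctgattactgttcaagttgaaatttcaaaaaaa

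Forkhead and SKN-1 core letters were each found under some of the proteasome peaks. Within 50 bp of the summit, on either strand, the forkhead core TAAACA was present in 2 of the 5 peaks, those of pas-4 and rpn-3, and in 6.06% of all 1189 reproducible peaks. In rpn-3 the match began 23 bp from the summit. The longer form GTAAACA, which contains the core, was in 0 of the 5 and in 1.01% of all reproducible peaks. The SKN-1 core was in 3 of the 5 as GTCAT (pas-5, rpn-11 and rpn-2) and in 12.8% of all reproducible peaks, and as ATCAT in 0 of the 5 and 16.1%. The GTCAT matches of rpn-11 and rpn-2 began 6 and 38 bp from the summits. In promoters of 300 bp at the outermost coding TSS (250 bp before it and 50 bp after), TAAACA was present in 8 of 33 members (24.2%) and in 24.9% of all coding genes. For GTCAT the counts were 19 of 33 members (57.6%) and 39.5% of coding genes. For ATCAT they were 19 of 33 and 55.6%, and for GTAAACA 1 of 33 and 4.77%. A match describes the letters of a window and shows no site in use.

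In the core particle, both reproducible peaks belonged to alpha ring genes and both summits lay inside annotated noncoding RNA genes. At pas-4 (chromosome I, summit 8728683, signal 73.2) the summit was 196 bp upstream of the TSS. It was nearer to rpb-3, the gene of an RNA polymerase II subunit, whose TSS on the other strand was 81 bp away. It lay within C36B1.16, a noncoding RNA gene between the pair. Its signal was 31.6 in replicate 1 and 39.0 in replicate 2, at ranks 656 and 861, with summits 0 and 70 bp from the pooled one.

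At pas-5 (chromosome I, summit 10565416, signal 67.3) the peak stood 934 bp upstream, at the far end of the window. The summit lay inside the snoRNA gene F25H2.15, 513 bp beyond the end of ubc-25, a ubiquitin-conjugating enzyme gene on the same strand. No other coding gene shared it. Replicate 1 gave a signal of 43.8 at rank 352 and replicate 2 gave 23.4 at rank 1995, the opposite order to rpn-3. Of all reproducible peaks, 8.07% had the summit inside a noncoding gene, piRNA genes not counted, and 0.336% inside a snoRNA gene. Among the 697 reproducible peaks in coding promoter windows, that of pas-5 was the 1 peak with its summit in a snoRNA gene. Without peaks inside noncoding genes the members counted fell from 5 to 3 and the core from 2 to 0, beside 4.45% of coding genes. This alternative was chosen after seeing the data. The narrower window, 500 bp upstream and 100 bp downstream, left out pas-5, and assignment to the nearest TSS left out pas-4, so each gave 1 of 14 core genes. Of all coding genes, the narrower window counted 3.77% and the nearest TSS 5.38%.

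**Figure D2:**
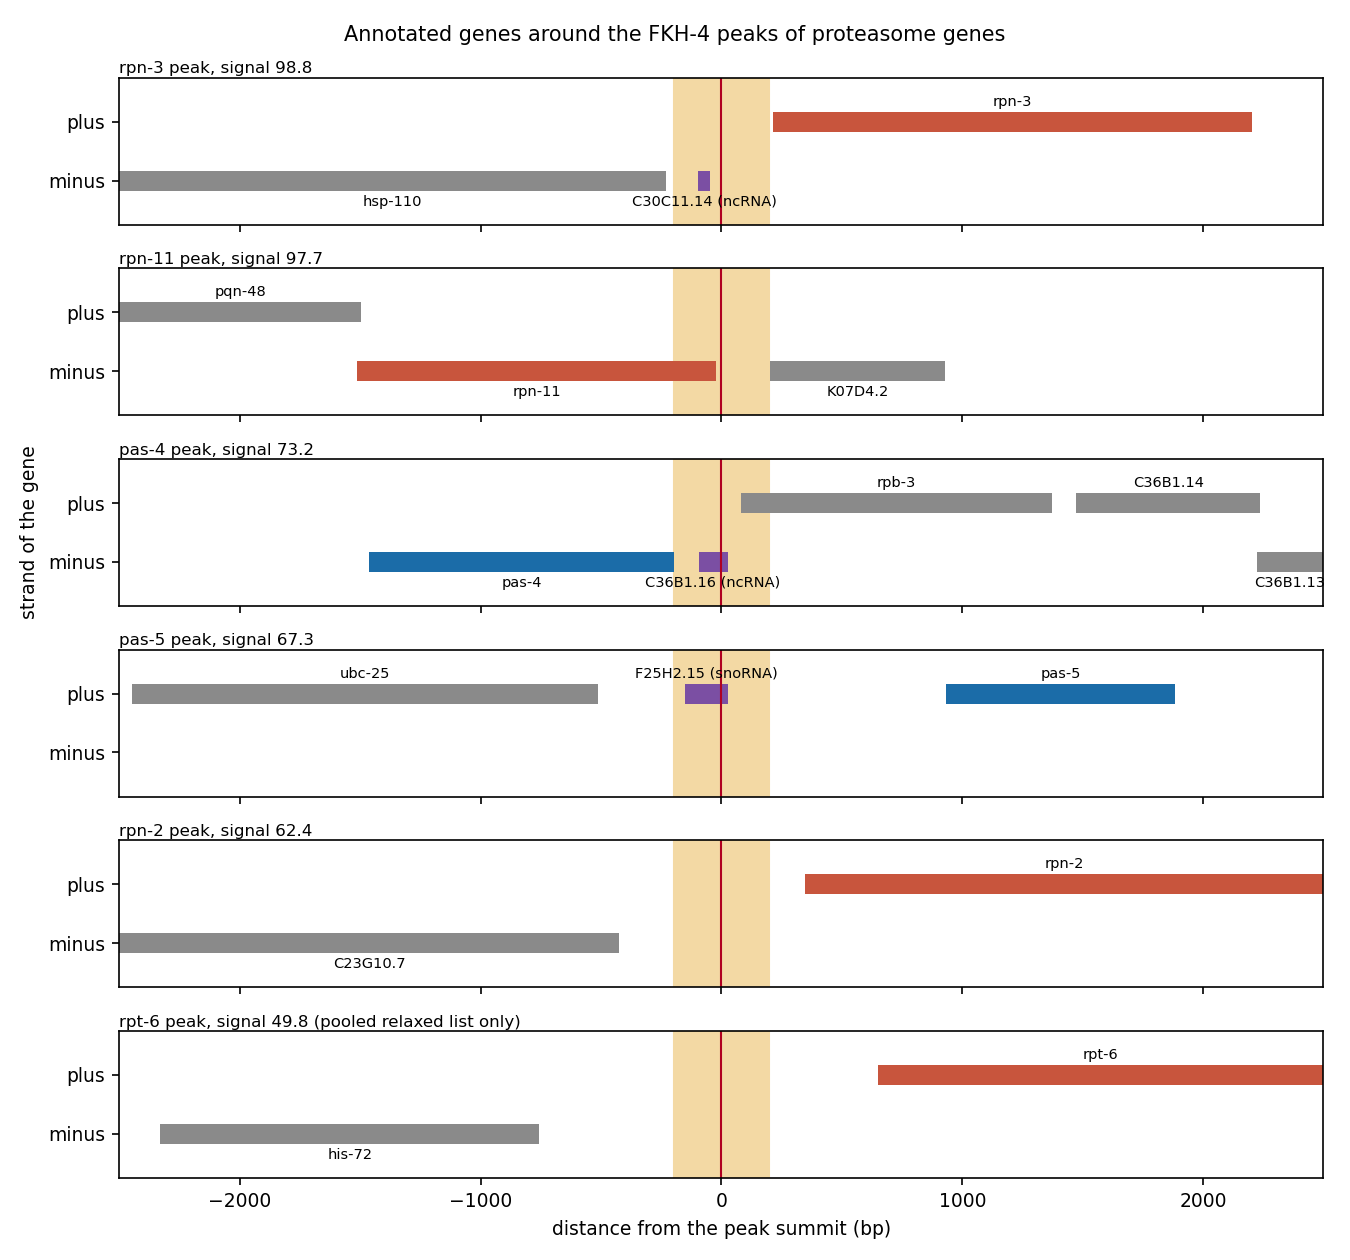
Bars are annotated genes on the plus and minus strands around each summit (red line), with the peak shaded and the horizontal axis giving distance from the summit in bp; blue bars are core genes, red bars regulatory particle genes, grey bars other coding genes and purple bars noncoding genes, with piRNA genes, a snoRNA gene within his-72 and genes that barely enter the frame not drawn. The summits of pas-4 and pas-5 lie inside noncoding genes. The peaks of rpn-3, pas-4, rpn-2 and rpt-6, the last outside the reproducible set, lie between divergent genes.

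Just outside the reproducible set stood the ATPase gene rpt-6, with a pooled signal of 49.8 at rank 1277, and the alpha ring genes pas-3 and pas-1, with 44.9 and 43.3 at ranks 1541 and 1646. The rpt-6 summit lay 650 bp upstream, in a window shared with his-72, a histone H3.3 gene. All 3 lists put it at the same base. Its signal was 19.8 at rank 2623 in replicate 1 and 23.4 at rank 2003 in replicate 2. The authors' −log10 q value was 0.414 in replicate 1, a weak peak by that measure, and 1.73 in replicate 2. The pas-3 summit, 134 bp upstream and shared with use-1, was strong in replicate 2 (signal 43.3, rank 722) and had no counterpart in the window in replicate 1. With the 1189 strongest peaks of replicate 2 alone, pas-3 took the place of pas-5. At pas-1 the strongest summit was 823 bp upstream in the pooled list and 877 bp upstream in replicate 2, with a signal of 31.2 at rank 1206. The strongest in replicate 1 was another position, 548 bp upstream, with a signal of 14.7 at rank 8888. Its window was shared with rpoa-12, a gene of an RNA polymerase I subunit.

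Summits of the relaxed lists, many of them weak, were present at most proteasome genes. The pooled relaxed list was deposited as peaks and background, so a summit in it alone does not show binding. The authors' −log10 q value ran from 0.0222 to 3.3 in the pooled list. It was 0.0234 at rpn-12, the weakest member summit there, and 1.92 at rpt-6. The pooled list had a summit in the windows of 24 of 33 members (72.7%), beside 40.8% of all coding genes. Replicate 1 had 19 (57.6%), beside 39.8%, and replicate 2 had 21 (63.6%), beside 33.5%. All 3 relaxed lists had one at 13 members (39.4%), beside 20.8%. By particle, the pooled list had 10 of 14 core genes (71.4%) and 14 of 19 regulatory genes (73.7%). Among the 5000 strongest pooled peaks the count was 10 of 33 (30.3%), beside 12.8% of coding genes, and among the 10000 strongest it was 16 of 33 (48.5%), beside 19.6%. The median signal of a member's strongest pooled summit was 28.3 over the 24 members with one and 23.2 over all 8155 coding genes with one. The 14 members whose pooled summit was outside the 5000 strongest were pas-2, pbs-1, pbs-3, pbs-4, pbs-5, pbs-6, rpn-5, rpn-6.1, rpn-8, rpn-9, rpn-12, rpt-1, rpt-3 and rpt-5, with signals from 16.2 at rpn-12 to 28.7 at rpt-5. Members' windows were not longer than others, with a median of 1201 bp for both and more than 1 coding TSS in 24.2% of members and 26.3% of all coding genes.

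The ATPases and the beta ring had no reproducible peak. Their intervals, 0 to 45.9 and 0 to 41.0, include the 4.77% of all coding genes. The signals of their pooled summits overlapped. Over all coding genes, 40.8% had a pooled summit and 12.8% had one among the 5000 strongest. All 6 rpt genes had a pooled summit, from 18.8 at rpt-1 to 49.8 at rpt-6, with a median of 31.0 and 3 of them, rpt-2 (33.2), rpt-4 (36.9) and rpt-6, among the 5000 strongest. The rpt-4 summit lay 177 bp upstream of an internal TSS. In replicate 2, rpt-4 had a signal of 25.1 at rank 1767 and rpt-2 had 24.4 at rank 1863; in replicate 1, rpt-4 stood at rank 15519 and rpt-2 had no summit. At rpt-3 the opposite held, with a signal of 20.3 at rank 2345 in replicate 1 and none in replicate 2. Of the beta ring genes, 5 of 7 had a pooled summit, with signals from 17.4 at pbs-4 to 28.4 at pbs-1, and none was among the 5000 strongest. In replicate 2, pbs-6 (21.4, rank 2431) and pbs-1 (19.6, rank 2957) were among the 5000 strongest, while replicate 1 had no beta ring gene there. Over all coding genes, 13.4% had a summit among the 5000 strongest in replicate 2 and 11.4% in replicate 1. The difference between the subcomplexes was not tested.

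Some genes had a summit in 1 list only. The lid gene rpn-7 had a summit at rank 3077 in replicate 1, 184 bp downstream of a TSS, and none in the other lists. The base gene rpn-1, a scaffold and ubiquitin-binding subunit, had one at rank 4008 in replicate 2 alone. The lid gene rpn-12 had one only in the pooled list, at rank 28902, and the alpha ring gene pas-6 only in replicate 1, at rank 17176. At rpn-9, which also had a pooled summit at rank 15344, replicate 2 gave a signal of 21.2 at rank 2470 and replicate 1 none. Of the paralogues rpn-6.1 and rpn-6.2, the first had a summit in each of the 3 relaxed lists, at ranks 8914, 20326 and 16909, and the second only in replicate 1, at rank 26944.

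No relaxed list had a summit at 5 of 33 members (15.2%), beside 45.6% of all coding genes. They were pas-7, the beta ring genes pbs-2 and pbs-7, and rpn-10 and rpn-13, the genes of both ubiquitin receptors named above. With the window widened to 2000 bp upstream and 500 bp downstream, the pooled list had a summit at 4 of these 5 genes, pas-7 being the exception, and at 30 of 33 members in all, beside 59.0% of coding genes.

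Replicates 1 and 2 each had a summit somewhere in the window at 13 of the 33 members (39.4%), beside 21.7% of coding genes. At 10 members (30.3%), beside 16.1%, a summit of 1 replicate lay within 200 bp of one of the other. They were pas-1, pas-4, pas-5, pbs-3, rpn-2, rpn-3, rpn-6.1, rpn-11, rpt-4 and rpt-6. All 5 reproducible member peaks had a summit within 100 bp in both replicates, but that set was made using both replicates. P-values are not given, since 2 replicates of 1 group allow no test between conditions. When 1 replicate was left out, the strongest 1189 peaks of the remaining list stood in for the reproducible set. Without replicate 1, 5 members were counted, beside 4.88% of all coding genes. Without replicate 2, 4 members were counted, beside 4.52%. The genes pas-4, rpn-2 and rpn-11 were counted in both cases.

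**Figure D3:**
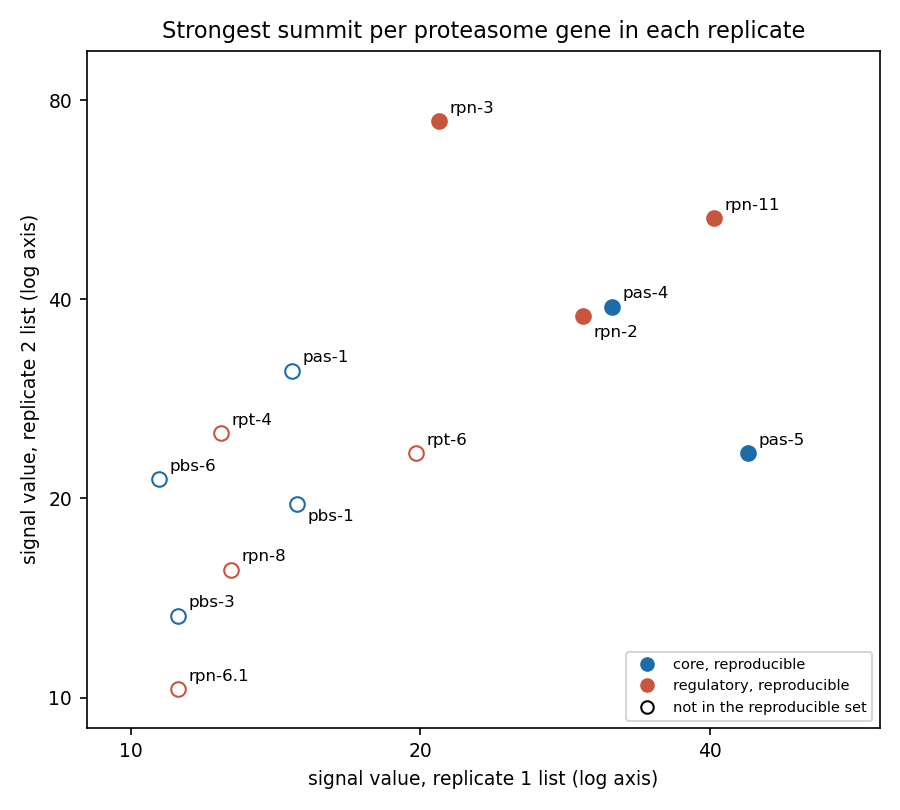
Each point is 1 of the 13 proteasome genes with a summit in both replicates, placed by the signal value of its strongest summit in the replicate 1 list (horizontal log axis) and the replicate 2 list (vertical log axis), in blue for core and red for regulatory particle genes and filled where the gene is in the reproducible set. The peaks of rpn-11, pas-4 and rpn-2 are high in both, rpn-3 is high in replicate 2 (74.3) and lower in replicate 1 (20.9), and pas-5 is high in replicate 1 (43.8) and lower in replicate 2 (23.4). Some points pair summits at different positions, as at rpn-8, 674 bp upstream in replicate 1 and 182 bp downstream in replicate 2.

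Of the 5 genes with a reproducible summit, 3 (60%) had a strongest summit that also lay in the window of a neighbour, hsp-110, rpb-3 or C23G10.7. Over all 953 coding genes with a reproducible summit the share was 57.2%, so the member count was near that of all genes. Among the 24 members with a pooled summit, the strongest summit was shared at 17 (70.8%), beside 28.4% of coding genes with a pooled summit. The members' gene arrangement was read separately. The outermost start of 22 of 33 members faced a divergent coding gene, against 42.2% of all coding genes. Of these divergent members 3 had a reproducible summit, and of all divergent coding genes 7.34% did. Another 8 members lay within 500 bp downstream of a coding gene on the same strand, a spacing that includes genes inside operons, whose annotated starts may be trans-splice sites. Of these, 1 had a reproducible summit, rpn-11, beside 3.32% of coding genes so placed. The part of gene arrangement in the members' counts and in the sharing of summits was not tested. Members lay on every chromosome but X, which holds 13.7% of coding genes and 213 reproducible peaks. Those with a reproducible summit were 2 of 10 on I, 1 of 7 on II and 2 of 8 on III, with 0 of 3 on IV and 0 of 5 on V. Over all chromosomes 4.77% of coding genes had a reproducible summit, and no difference between chromosomes was tested.

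**Figure D4:**
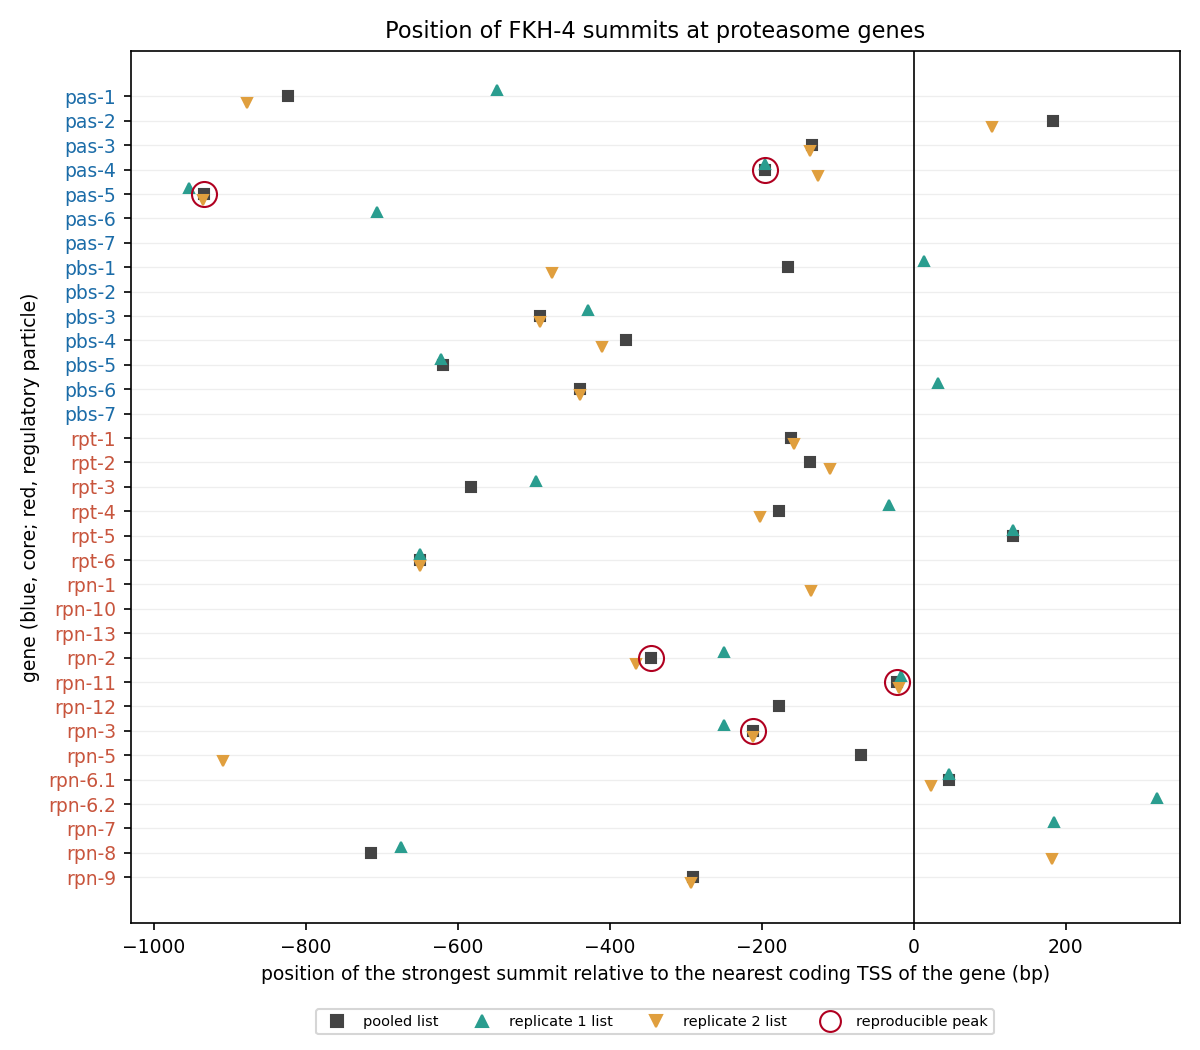
The horizontal axis gives the position of each gene's strongest summit relative to its nearest coding TSS in bp, with negative values upstream, for the pooled list (squares), replicate 1 (upward triangles) and replicate 2 (downward triangles); circles mark reproducible peaks. The 5 circled summits are all upstream, from 22 bp at rpn-11 to 934 bp at pas-5, and a gene can have points past 200 bp where its summit was counted through another TSS.

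Genes that act with the proteasome were read for comparison, from lists chosen with results of these data known. The share of all coding genes with a reproducible summit, 4.77%, stands beside each count. Of 13 genes for the CDC-48 unfoldase, which extracts ubiquitinated proteins, and its cofactors, 3 had a reproducible summit (23.1%, 5.04 to 53.8). They were cdc-48.1 (signal 220.5, rank 71), ufd-3 (180.5, rank 109) and ubxn-2 (87.5, rank 516). The first 2 peaks were stronger than any at a proteasome subunit gene, and both replicates gave cdc-48.1 similar ranks, 71 and 68. Of 26 ubiquitin and ubiquitin-conjugation genes, 4 had a reproducible summit (15.4%, 4.36 to 34.9). These were ubq-2 (68.8) and ubl-1 (52.4), which encode ubiquitin or a ubiquitin-like sequence fused to a ribosomal protein, and the conjugating enzyme genes ubc-25 (62.9) and ubc-3 (59.8). Of 9 genes of the SKN-1 response, 1 had a summit, wdr-23 (90.7), whose product represses SKN-1. None of the 8 proteasome-associated genes had one, among them dss-1 of the lid. The interval, 0 to 36.9, includes the share of all coding genes.

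The lid shares its domain architecture with the COP9 signalosome and with the translation initiation factor eIF3. Of the 6 csn genes 0 had a reproducible summit (0 to 45.9, which includes the 4.77% of all coding genes). Of the 11 eif-3 genes 4 did (36.4%, 10.9 to 69.2), with signals from 52.9 at eif-3.D to 353 at eif-3.B. In the pooled list the counts were 2 of 6 for csn (33.3%), 6 of 11 for eif-3 (54.5%) and 7 of 9 for the lid (77.8%). The pooled share of all coding genes was 40.8%. These lists are small, their intervals overlap that of the proteasome genes, and no difference between them was tested.

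**Figure D5:**
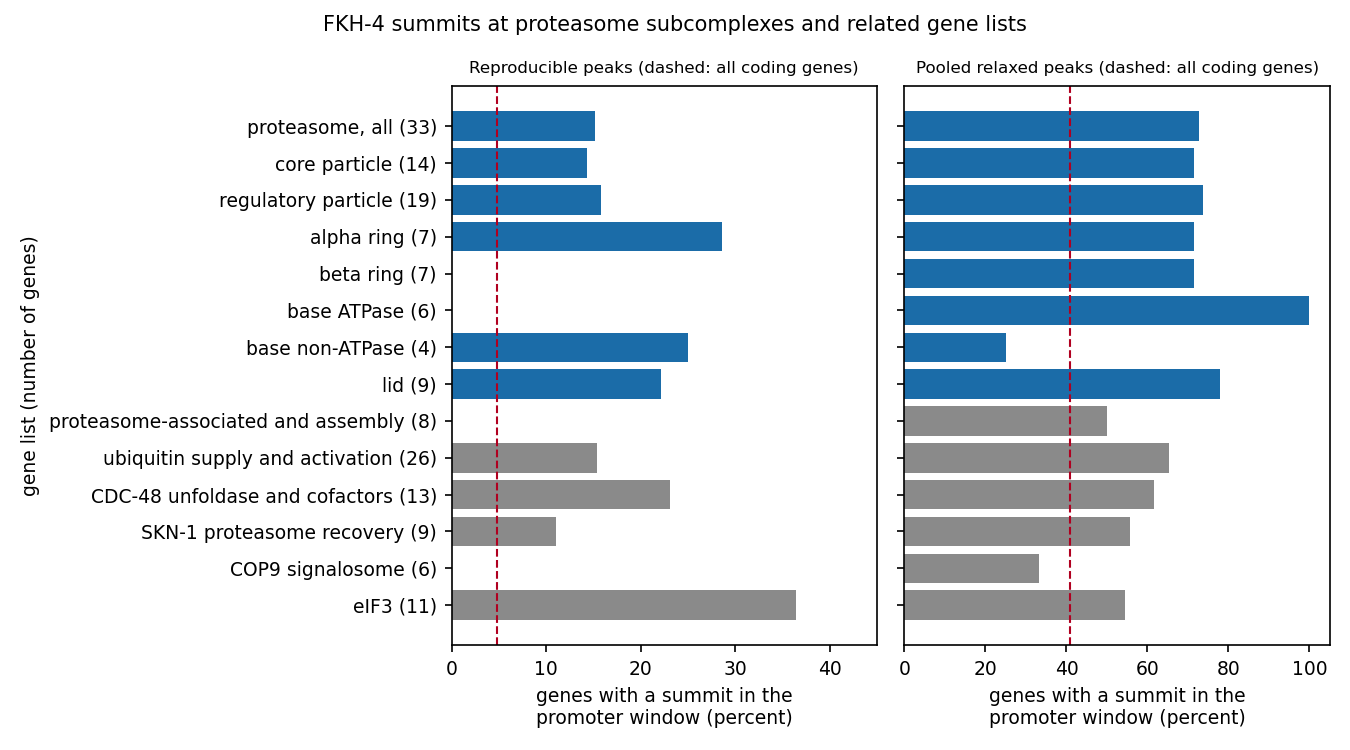
Bars give the percent of genes in each list with a reproducible summit (left) or a pooled relaxed summit (right) in the promoter window, with blue for the proteasome and its subcomplexes, grey for related lists and dashed lines for all coding genes at 4.77% and 40.8%. The beta ring and the base ATPases have no bar on the left, and on the right they stand at 71.4% and 100%.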

How the data were processed

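Whole L1 larvae of 1 strain were profiled by ChIP-seq in 2 biological replicates. Per the deposited sample listings, each relaxed list was made against a control of another experiment, not analysed here, and the reproducible set combines the replicate and pooled lists. The sources used here name no aligner, peak caller, version or threshold. The authors deposited for each peak a signal value of unstated scale and a −log10 q value, which entered no test. Read depth is unknown. The ce11 lists were used, whose peaks all end within the WBcel235 chromosomes, with Ensembl release 115 genes and RefSeq's WBcel235 sequence. Positions count from 1.

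Only coding transcripts gave TSSs, and taking every transcript of a coding gene moved 4.77% to 4.79%. Counts, distances, ranks and motif matches were computed with Python 3.11.15, and intervals with SciPy 1.17.1. Assignment was tested on planted summits. The members and lists were chosen with earlier results of these data known. Members with a reproducible summit are given in full, and the others by list, with values where the strongest summit was among the 5000 strongest of its list. A few weaker summits are named after their values were seen. Other windows, peak sets, assignments and match distances were tried, and each replicate was left out.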

Additional observations from a re-analysis of the deposited data

How the results depend on the processing

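Of 45 counts recomputed under other settings, 33 stayed within 1.5 times the reported count and 12 did not. Core particle genes went from 2 to 1 with the narrow window and with the nearest TSS, and to 0 with the 594 strongest reproducible peaks or with summits outside noncoding genes. The shares of all coding genes at these settings were, in the same order, 3.77%, 5.38%, 2.72% and 4.45%. With those 594 peaks, members went from 5 to 2 and shared peaks from 3 to 1. Outside noncoding genes, members went to 3. Regulatory particle genes stayed at 2 or 3 throughout, while the share of all coding genes ran from 2.72% to 6.33%. The 5000 strongest peaks lowered the pooled count from 24 to 10 and that of replicate 1 from 19 to 8, where fewer peaks enter by construction. Among all coding genes the shares went from 40.8% to 12.8% and from 39.8% to 11.4%. Replicate 1 also gave 11 with its 10000 strongest, 12 with the narrow window and 29 with the wide one. The shares of all coding genes at those settings were 18.2%, 24.7% and 59.2%. Leaving out a replicate gave 4 to 5 members, 2 core genes and 2 to 3 regulatory genes, beside 4.52% to 4.88% of coding genes. It also gave 2 to 4 shared peaks. No paired analysis was possible because the 2 samples form 1 group. Read depth is unknown, so a missing summit cannot be told from a shallow library, and with 14 and 19 genes the particles' intervals are wide.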
